A study of Mus musculus with 6 samples.

Results

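The clustered protocadherin genes were examined for the promoter mark H3K4me3 (histone H3 trimethylated on lysine 4) and for binding of Tex10 in PGCLCs, mouse cells grown in culture as a model of primordial germ cells. Members were the protein-coding genes of chromosome 18 in GENCODE M21 (GRCm38) whose symbols are Pcdha, Pcdhb, Pcdhga, Pcdhgb or Pcdhgc with a number, with Pcdhac1 and Pcdhac2. The rule gave 57 genes of 21853 protein-coding genes, 14 in the alpha, 22 in the beta and 21 in the gamma cluster. Primordial germ cells are the founders of the germ line. The PGCLCs were taken at day 2, untreated and of strain 129Sv/J, and Tex10 carried an HA tag at its C-terminus in the cells used. There were 2 HA-Tex10, 2 H3K4me3 and 2 input samples, and the deposited data analysed here are 1 list of genomic intervals for each antibody, with no score, so no value has a replicate error, the depth is unknown and no test compares samples. Ranges after a share of genes are 95% Wilson confidence intervals, which cover the counting of genes only and treat neighbouring genes as independent.

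Clustered protocadherins are cell-surface adhesion proteins of the cadherin family, best known in neurons, where each cell expresses its own small combination of isoforms and so carries a surface identity used in self-recognition. In the alpha and gamma clusters each gene has its own promoter and its own large first exon, called the variable exon, which encodes the extracellular, transmembrane and part of the cytoplasmic region and is spliced to constant exons shared by the whole cluster. Beta genes have no constant exons. The alternate alpha, beta, gamma A and gamma B isoforms are the ones known to be chosen in a stochastic way in neurons, while the 5 C-type genes (Pcdhac1, Pcdhac2, Pcdhgc3, Pcdhgc4 and Pcdhgc5) are used more constitutively. H3K4me3 marks promoters that are active or open to activation, and Tex10 is a nuclear protein known from ribosome assembly complexes and from the regulation of pluripotency.

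The clusters lie in the order alpha, beta, gamma on the plus strand. On GRCm38, alpha spans chr18:36930184-37187661 (257 kb), beta chr18:37264938-37524479 (260 kb) and gamma chr18:37661793-37841873 (180 kb). GENCODE M21 gives the symbol Pcdha11 to both ENSMUSG00000007440.10 and ENSMUSG00000102206.5, and the first of these is called Pcdha10 here, after the RefSeq gene that starts at the same place. In alpha, 3 constant exons of 59, 89 and 2712 bp were annotated in all 14 genes. In gamma, exons of 59 and 89 bp were shared by all 21 genes and a last exon of 1971 bp by 17 of them.

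H3K4me3 was unevenly spread over the 3 clusters. Of the 57 genes, 21 carried the mark, that is, had an H3K4me3 interval no farther than 1 kb from a transcription start site (TSS) (36.8%, 25.5 to 49.8%), whereas 60.9% of all protein-coding genes and 67.5% of those on chromosome 18 had one. By cluster the count was 5 of 14 genes in alpha (35.7%, 16.3 to 61.2%), 0 of 22 in beta and 16 of 21 in gamma (76.2%, 54.9 to 89.4%). The count of 0 in beta allows a share of up to 13.6%. The Wilson intervals of alpha and of gamma both held the genome-wide 60.9%, and the upper end of beta (14.9%) lay below it. The 67.5% of chromosome 18 was held by the interval of gamma but lay above the upper ends of alpha (61.2%) and beta.

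**Figure D1:**
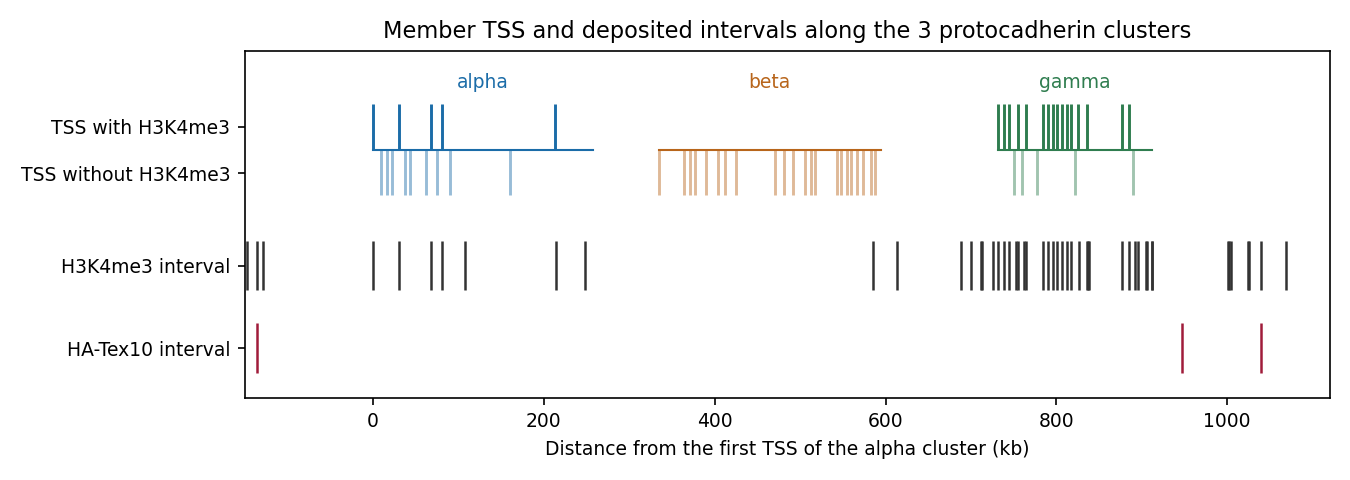
Positions of the 57 member TSS and of the deposited intervals, in kb from the first TSS of the alpha cluster, with TSS that have H3K4me3 within 1 kb (21 genes) above each cluster line, the other 36 below it, and the H3K4me3 and HA-Tex10 intervals in the lower tracks. H3K4me3 is dense over gamma, beta holds 1 interval near its end, and no HA-Tex10 interval lies inside the clusters.

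In alpha, the marked genes were Pcdha1, Pcdha5, Pcdha9, Pcdha11 and the C-type gene Pcdhac2. They did not adjoin one another among the 14 genes, so no run of neighbouring marked genes was longer than 1. Pcdhac2 had the widest alpha interval, 877 bp at chr18:37143510-37144386, starting 7 bp after its TSS. The alternate genes had narrower intervals. At Pcdha5 the interval was 470 bp wide and contained the TSS, and at Pcdha1, the first gene of the cluster, it was 462 bp wide. The interval at Pcdha11 was 211 bp wide, and that at Pcdha9 was 117 bp, the narrowest at any member. The 8 other alternate genes (Pcdha2, Pcdha3, Pcdha4, Pcdha6, Pcdha7, Pcdha8, Pcdha10 and Pcdha12) lay between 5.67 kb (Pcdha8) and 14.3 kb (Pcdha3) from the nearest interval. Pcdhac1, the other C-type gene of the cluster, was 51.8 kb from one.

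Of the 3 clusters, beta had the least H3K4me3. Its 260 kb held 1 interval, 0.385 per 100 kb, against 0.954 per 100 kb on chromosome 18 and 1.06 on the assembled chromosomes. This interval (414 bp, chr18:37515390-37515803) lay inside the exon of Pcdhb21, 1769 bp after its TSS and 2068 bp before a TSS of Pcdhb22, the last gene of the cluster. Those 2 genes were therefore just outside the 1 kb window, and they were marked with a window of 2.5 kb. The other 20 beta genes were between 11.1 kb (Pcdhb20) and 163 kb (Pcdhb7) from the nearest interval, with 86.6 kb at Pcdhb1, the first gene. The 77.3 kb between alpha and beta held 0 intervals.

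The gamma cluster held 25 intervals in 180 kb, 13.9 per 100 kb, and they covered 8.85% of it. The covered share was 1.01% in alpha, 0.16% in beta, 0.918% on chromosome 18 and 1.02% on the assembled chromosomes. Genes are also denser in gamma, with 21 members in 180 kb against 511 protein-coding genes in the 90703 kb of chromosome 18. These densities were not corrected for the density of TSS. Of the 25 intervals 16 were at a member TSS, and the widest, of 2856 and 1752 bp, were not. Of the gamma A genes, 11 of 12 were marked (91.7%, 64.6 to 98.5%), the exception being Pcdhga6, which lay 7684 bp from an interval. Of the gamma B genes, 3 of 6 were marked (50%, 18.8 to 81.2%), namely Pcdhgb4, Pcdhgb5 and Pcdhgb6. The confidence intervals of the A and B types overlapped. From Pcdhga7 to Pcdhga10 there were 7 neighbouring genes with a mark at each, the longest run in the clusters. Across all 5 C-type genes of both clusters the count was 3 (60%, 23.1 to 88.2%).

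**Figure D2:**
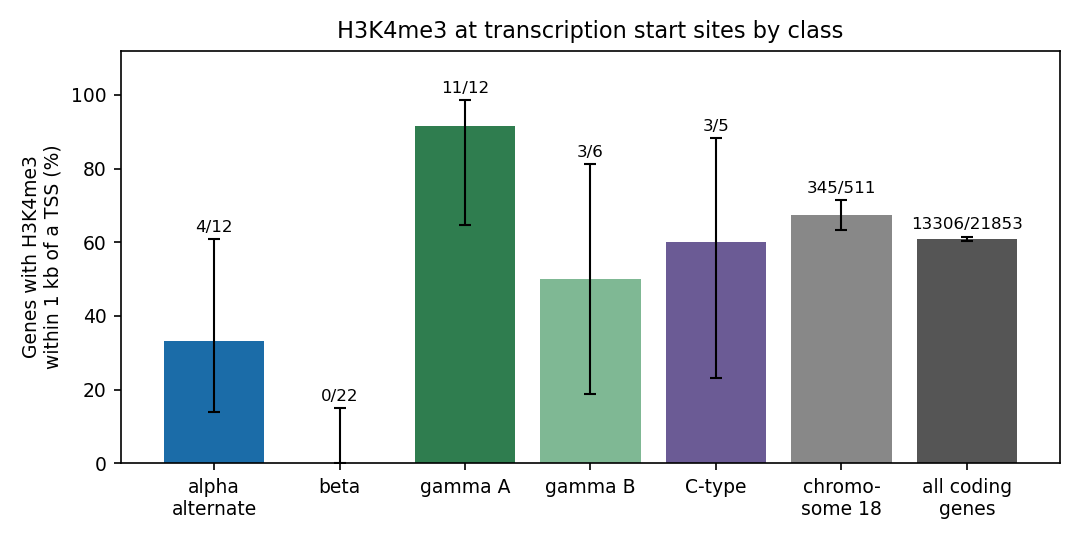
Percentage of genes whose TSS had H3K4me3 within 1 kb, by protocadherin class, for chromosome 18 and for all protein-coding genes. Error bars are 95% Wilson intervals, and the numbers above them are marked genes over all genes of the class. Beta is at 0 of 22 and gamma A at 11 of 12.

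Of the gamma genes without an interval within 1 kb, 3 had one farther along or past the first exon. At Pcdhgb1 an interval of 445 bp began 1869 bp after the TSS, and at Pcdhgb2 one of 396 bp began 1963 bp after it. Both lay whole in the 3' part of the variable exon, at nearly the same place in each gene. Pcdhgc5, the last gene of the cluster, was 2073 bp from an interval of 1752 bp, with 28.3% of that interval in its first exon. That interval lay 489 bp from a TSS of the annotated noncoding gene Gm38182. Pcdhgb7 lay 4298 bp from the nearest interval. Pcdhgb8, annotated as a polymorphic pseudogene and so no member, was 4111 bp from one. Among the members inside the 1 kb window, those closest to its edge were Pcdhga12, at 332 bp, and Pcdhga11, at 220 bp, so no member lay between 332 and 1769 bp.

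Widths at the members were small. The widest interval at each of the 21 marked members had a median width of 470 bp (range 117 to 1203 bp), against 1342 bp at all 13306 marked protein-coding genes. All 21 members were below that genome-wide median, and 8.49% of all marked genes had an interval narrower than 470 bp. The median was 462 bp at the 5 marked alpha genes and 560 bp at the 16 marked gamma genes. The widest were at Pcdhga1, the first gamma gene (1203 bp, chr18:37661700-37662902), and at Pcdhgc3 (1191 bp, chr18:37806104-37807294). At Pcdhgc4 the interval was 792 bp wide. Each of the 3 marked C-type genes had a wider interval than any other marked gene but Pcdhga1, since the next was 691 bp at Pcdhga8. Width is the one measure of size that the lists give, and the height of the signal is not in them.

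The intervals sat on the 5' part of the variable exon. In 10 of the 21 marked members the interval contained the 5'-most TSS and in 11 it began downstream, and none ended upstream. The median start was 7 bp and the median end 468 bp after the TSS, and in 21 of 21 cases over 50% of its length was inside the first exon (median 100%). At all marked protein-coding genes the interval contained the TSS in 71.2% of cases and ran, in the median, from -227 bp to 1031 bp. Intervals there were also wider (median 1342 bp against 470 bp), and positions were not compared at equal width. Pcdhgc3 reached farthest upstream, from -306 bp. Pcdhga12 had further intervals of 221 and 586 bp in the same exon, the second of which met a TSS of the noncoding gene Gm26672.

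**Figure D3:**
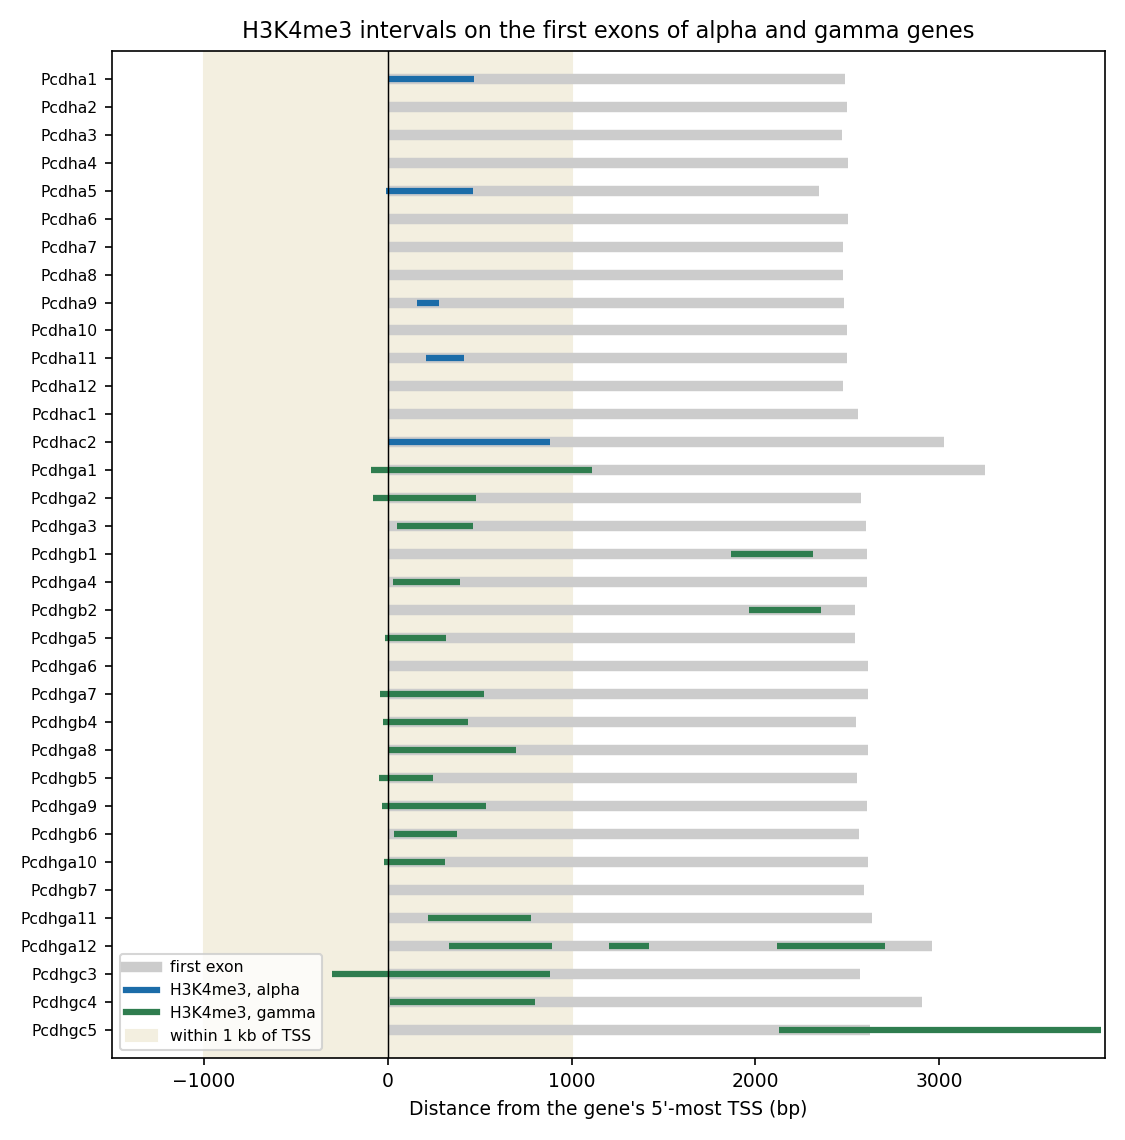
H3K4me3 intervals (coloured bars) on the first exon (grey bars) of the 35 alpha and gamma genes, in genomic order, against the distance in bp from the 5'-most TSS. The shaded band is the 1 kb window. Intervals at the 21 marked genes sit at the start of the exon, while those of Pcdhgb1 and Pcdhgb2 sit near its end.

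Other transcripts start at a few of these sites. Of the 21 intervals at member TSS, 4 also lay within 1 kb of an antisense TSS, those of Gm37118 at Pcdhga1, Gm37165 at Pcdhga8, Gm26672 at Pcdhga11 and BC037039 at Pcdhgc3. H3K4me3 carries no strand, so at these 4 genes the mark of the member and of its antisense partner cannot be told apart. Along the clusters 12 of 33 intervals were away from member TSS. The widest interval within the clusters, of 2856 bp at chr18:37824049-37826904, lay over the first constant exon of gamma and a TSS of Gm38182. In alpha, an interval of 122 bp lay 206 bp from a TSS of the noncoding gene Gm10544. Between beta and gamma there were 6 intervals in 137 kb. One of 2186 bp covered the TSS of Taf7, which encodes a subunit of the general transcription factor TFIID, and one of 988 bp covered that of the lincRNA gene 3222401L13Rik. Slc25a2, a gene of a mitochondrial carrier next to Taf7, was 3375 bp from the nearest interval.

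No HA-Tex10 interval lay at a clustered protocadherin gene. The count was 0 of 57 genes within 1 kb of a TSS, which allows a share of up to 5.26% by the limit of 3 counts and 6.31% by the Wilson interval. The share was 8.66% of all protein-coding genes, above both limits. On chromosome 18 it was 6.26% with the members included, which the Wilson interval held. Without the members it was 7.05% there, above both limits. Among the 21 members with H3K4me3 it was 0, which allows up to 14.3%, against 13.9% of all protein-coding genes with H3K4me3. At this number of marked genes a share equal to the background was therefore not separable from 0. There were also 0 HA-Tex10 intervals anywhere in the 912 kb from the first to the last member. The nearest were 136 kb before Pcdha1, at chr18:36793841-36794055 over the TSS of Zmat2, and 35.7 kb after the end of gamma, at chr18:37877540-37877724 in the gene body of Diaph1. They bound a stretch of 1083 kb without an interval. Of 4217 stretches between neighbouring HA-Tex10 intervals, 731 (17.3%) were at least as long, so longer ones were not rare. The distance to the nearest HA-Tex10 interval had a median of 208587 bp over the members, with 57974 bp at Pcdhgc5 as the smallest and 539866 bp at Pcdhb6 as the largest. The median over the protein-coding genes of chromosome 18 was 211148 bp with the members included and 212018 bp without them. Over all protein-coding genes it was smaller, 161646 bp.

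GC content around the member TSS was low, with similar medians in the 3 clusters. In the window from 250 bp before to 50 bp after the 5'-most TSS the median GC content was 39.7% over the members (30.7 to 63%), against 55.3% over all protein-coding genes and 60.7% over those with H3K4me3. The median was 38.7% in alpha, 39.5% in beta and 42% in gamma, with overlapping ranges. Of the 21 marked members 19 had a GC content under 50%, against 13.2% of all marked genes. Their median was 42%, a value that 2.38% of all marked genes did not exceed. The exceptions above 50% were Pcdhac2 (52.3%) and Pcdhgc3 (63%). Pcdhac1, at 60.7%, and Pcdhgc5, at 54.7%, had no mark within 1 kb. In this window marked and unmarked members overlapped widely, with medians of 42% and 38.7%.

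In the first 500 bp after the TSS, where the intervals lie, most beta genes had fewer CpG dinucleotides than expected by more than the others. This window was chosen after the positions of the intervals were seen. The ratio of observed to expected CpG dinucleotides there had a median of 0.717 in alpha, 0.339 in beta and 0.632 in gamma, compared with 0.774 at all genes with H3K4me3 and 0.201 at those without. In beta, 21 of 22 genes had values from 0.165 to 0.489. The other was Pcdhb1, the first gene of the cluster, at 0.665. Of the 35 alpha and gamma genes 33 were above 0.489, a value taken from beta itself with Pcdhb1 left out. The exceptions were Pcdhga12 (0.422, marked) and Pcdhgc5 (0.264, not marked within 1 kb). The full ranges overlapped, at 0.165 to 0.665 in beta, 0.629 to 0.81 in alpha and 0.264 to 0.947 in gamma. Pcdhga12 has another annotated TSS closer to its interval, where the ratio was not read. GC content in the same window had medians of 55.5%, 47.2% and 55.6% in alpha, beta and gamma. Within alpha the ratio of marked genes (0.629 to 0.81) overlapped that of unmarked genes (0.653 to 0.751), and likewise in gamma.

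**Figure D4:**
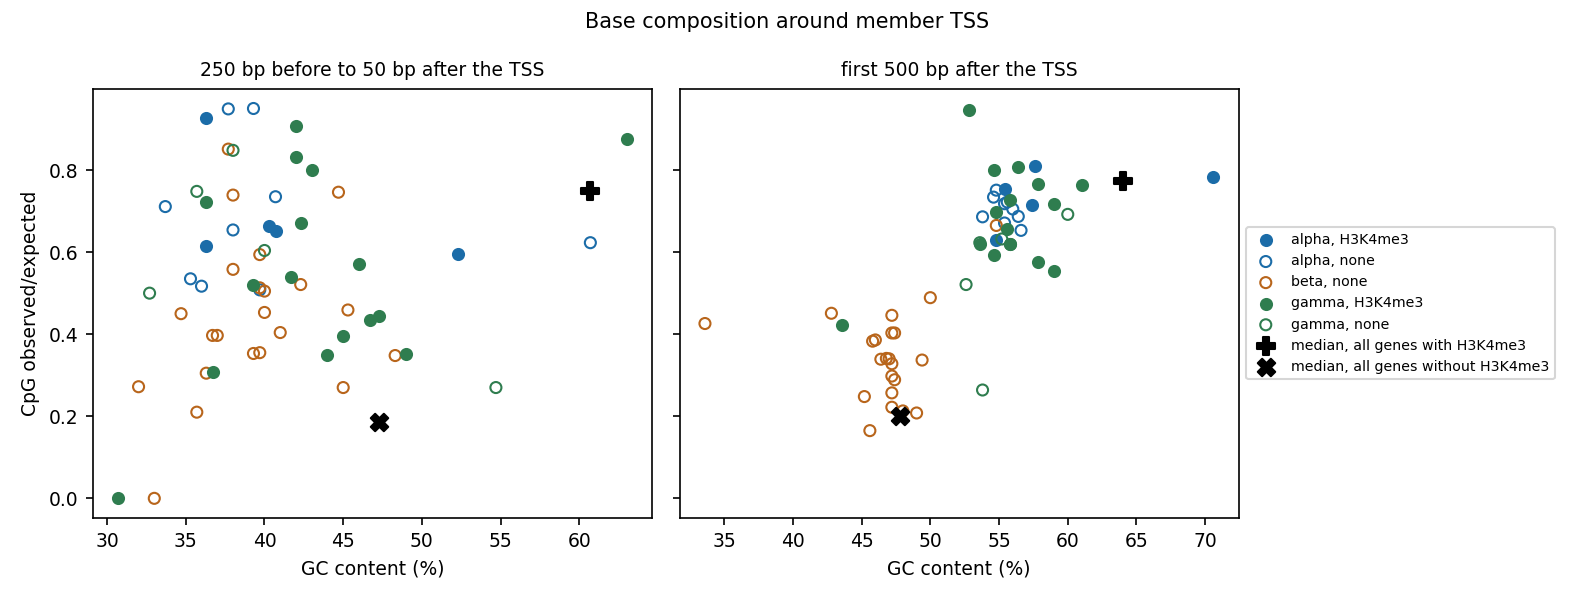
GC content and observed/expected CpG of the 57 members in the promoter window (left) and in the first 500 bp after the TSS (right), with filled points for genes with H3K4me3 and open points for those without. Black symbols are medians of all protein-coding genes with and without the mark. On the right most beta genes lie below 0.489, a value taken from beta itself, and most alpha and gamma genes above it.

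Short motifs were searched in the promoter window on both strands. CTCF is a DNA-binding protein known to bind protocadherin promoters and the enhancers that choose among them. The core of its motif was present in 4 of 57 windows (7.02%), those of Pcdha4, Pcdhac1, Pcdhb1 and Pcdhb15, against 9.58% of all protein-coding genes. None of those 4 genes was marked. Over all protein-coding genes the core was present at 12.6% of those with H3K4me3 and 4.81% of those without. The count of 0 among the 21 marked members allows up to 14.3% by the limit of 3 counts, which holds the 12.6%. The letters CGCT, the core of the conserved protocadherin promoter element, were present in 55 of 57 windows (96.5%), with Pcdhb22 and Pcdhga12 as the exceptions, against 67.5% of all genes and 87.2% of those with H3K4me3. The 5'-most TSS of Pcdhb22 lies inside the exon of Pcdhb21. Another annotated TSS of Pcdhga12 lay 139 bp from its interval, against 332 bp for the TSS used. Windows at other TSS were not read. The letters TATAAA were present in 10 windows (17.5%, against 12.6% of all genes). One of those 10 belonged to a marked gene, Pcdha11, which is 4.76% of the marked members against 6.79% of all genes with H3K4me3. The motifs can overlap one another, and a match describes letters in a window and not a bound site. The CTCF core was searched as a fixed pattern of letters, so a window without a match can still hold a CTCF site. Sequence outside the window, such as the rest of the variable exon, was not searched. Whether the members have fewer CTCF sites than other genes was therefore not tested.

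Stretches of identical sequence shared between genes limit how firmly a read can be placed on one of them. Within 1 kb of the 5'-most TSS, the share of 32-base words that occur more than once on the assembled chromosomes had a median of 11.4% over the 12 alternate alpha genes (7.36 to 26.3%), 0.406% over beta, 2.31% over gamma A, 10.7% over gamma B and 0% over the C-type genes. The median over all protein-coding genes was 1.52%. Of the 21 intervals at member TSS, 1 was mostly repeated, that of Pcdha11, with 99.4% of its words found elsewhere and 98.9% found in the first exon of Pcdha10. Pcdha5 was next at 49.7%, then Pcdha1 (38.3%), Pcdhgb4 (34.3%, shared with Pcdhgb5), Pcdhgb6 (25.2%, shared with Pcdhgb7), Pcdhgb5 (24.8%, shared with Pcdhgb4) and Pcdha9 (23.3%). The 4 marked alternate alpha genes were among these 7. The intervals in the 3' part of Pcdhgb1 and Pcdhgb2 had 84.8% and 74.2% repeated words, most of them shared between those 2 exons, and at Pcdhb21 the share was 46.2%. Over the repeated words, a mark on one gene and a mark on its copy cannot be told apart by sequence. Without intervals over 25% repeated, 16 members kept a mark, 2 in alpha (Pcdha9 and Pcdhac2) and 14 in gamma, while 59.3% of all protein-coding genes had one. How reads that match several places were treated is not given in the sources used here, and its part in the low count of beta or alpha was not tested. Over the 22 beta genes, none of which had an interval within 1 kb, the share of repeated words ranged from 0 to 21.4%. It was highest at Pcdhb9 (21.4%), Pcdhb11 (19.3%) and Pcdhb12 (18.4%). It was 0% at Pcdhb1, Pcdhb2, Pcdhb3, Pcdhb13, Pcdhb14, Pcdhb17, Pcdhb18, Pcdhb19, Pcdhb21 and Pcdhb22.

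**Figure D5:**
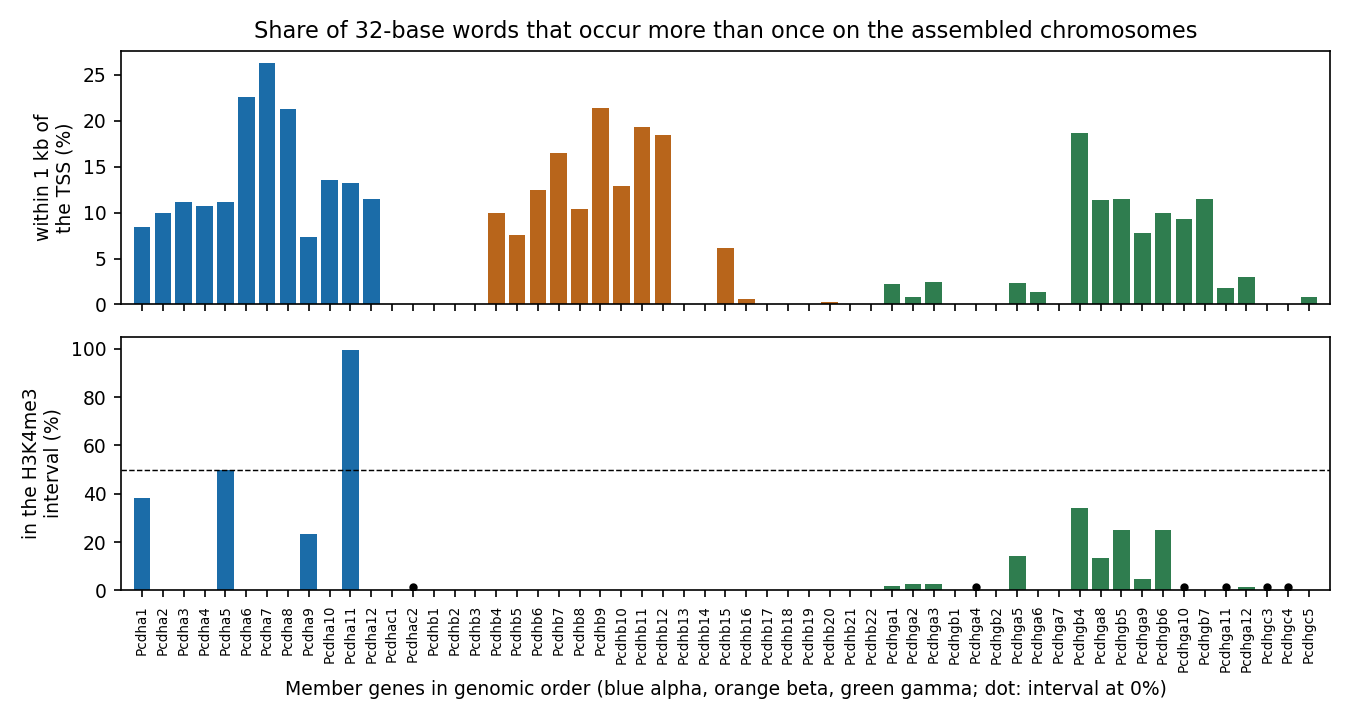
Percentage of 32-base words that occur more than once on the assembled chromosomes, within 1 kb of each member TSS (top) and in the H3K4me3 interval of each marked member (bottom), in genomic order. The dashed line is at 50%, which the interval of Pcdha11 exceeds at 99.4%. Dots are intervals at 0%.

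Related genes outside the clusters were read in the same way, against the 60.9% of all protein-coding genes with H3K4me3 and the 8.66% with HA-Tex10. Of 12 non-clustered protocadherins 5 had H3K4me3 within 1 kb of a TSS (Pcdh1, Pcdh8, Pcdh10, Pcdh17 and Pcdh19) and 0 had HA-Tex10. The H3K4me3 share was 41.7% (19.3 to 68%). The widths of their intervals had a median of 811 bp and ran from 393 bp at Pcdh8 to 3249 bp at Pcdh1. Of 17 classical cadherins, 11 had H3K4me3 (64.7%, 41.3 to 82.7%), with a median width of 849 bp, and 1 had HA-Tex10 (5.88%). These medians, like that of the members, were below the 1342 bp of all marked genes. The gene with HA-Tex10 was Cdh1, the epithelial cadherin, with an H3K4me3 interval of 2169 bp and an HA-Tex10 interval 46 bp from a TSS. Of 16 genes known to regulate the cluster promoters, among them Ctcf, the cohesin genes Rad21, Smc1a and Smc3, the cohesin loader Nipbl and the silencing factor Smchd1, all 16 had H3K4me3, with a median width of 2270 bp. HA-Tex10 was present at 2 of them, the DNA methyltransferase gene Dnmt1 and the H3K9 methyltransferase gene Setdb1 (12.5%, 3.5 to 36%), against 13.9% of all protein-coding genes with H3K4me3.

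The labelled cell type was read from H3K4me3 at marker genes. Of 10 germ cell-like or pluripotency genes 8 had an interval within 1 kb of a TSS (Prdm1, Prdm14, Tfap2c, Kit, Dnd1, Pou5f1, Nanog and Sox2). Their share of 80% had a range of 49 to 94.3%, which held the 60.9% of all protein-coding genes. Dppa3 was 1029 bp and Nanos3 3273 bp from one. Of 5 neuronal genes 4 were marked, also 80%, with a median width of 970 bp against 1734 bp at the germ cell-like genes, and 5 of 6 mesoderm and endoderm genes were marked. These counts did not set the labelled cell type apart from the others. HA-Tex10 lay within 1 kb of a TSS at 1 of the 10 germ cell-like genes, Kit (10%, at 1000 bp). It did so at 1 of 3 mesoderm genes, Tbx6 (33.3%, at 918 bp), and at 0 neuronal and 0 endoderm genes. The share over all protein-coding genes was 8.66%. A mark at a promoter does not measure expression, and the lists hold none.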

How the data were processed

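ChIP-seq of day 2 PGCLCs was deposited by the authors as lists of interval starts and ends, with no signal or score, and the intervals were the only measurement used. The submitters' processing notes name Bowtie2 2.3.4.3, SAMtools 1.9, MACS2 2.1.2, HOMER and the build mm10, without roles. Threshold, use of input, and calling on separate or pooled replicates are not given in the sources used here. The H3K4me3 list holds 29072 intervals and the HA-Tex10 list 4331. A further HA-Tex10 list holds the 2990 HA-Tex10 intervals that meet H3K4me3, so it is not independent. The reference is C57BL/6J and the label strain 129Sv/J.

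A gene was called when an interval lay within 1 kb of a TSS of GENCODE M21 protein-coding transcripts on the assembled chromosomes. The widest such interval gave the width. Base composition and motifs were read from 250 bp before to 50 bp after the 5'-most TSS. Repeated sequence was measured as 32-base words that occur more than once, and over 50% was called mostly repeated. Intervals are Wilson at 95%, and the limit for a count of 0 is 3 counts. The steps used Python 3.11.15, numpy 2.4.6 and pandas 2.3.3 and were tested on simulated data. Members and lists were chosen with earlier results of these data known. Named with values were members with an interval, those just outside 1 kb, the first and last of each cluster, the C-type genes, genes between or beside the clusters, and list genes with HA-Tex10. Others were named after their values were seen. Alternatives covered the TSS window, TSS set, interval width, merging, overlap rule, cluster limits and repeated sequence.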

Additional observations from a re-analysis of the deposited data

How the results depend on the processing

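The count of 21 marked members ranged from 16 to 27 under the alternatives other than the one on interval width. Over the same alternatives 58.1 to 63.9% of all protein-coding genes were marked. The HA-Tex10 alternatives could only give 0, since the nearest interval is 57974 bp from a member TSS. Beta had 2 marked genes, Pcdhb21 and Pcdhb22, with a window of 2.5 kb and again 2 with 5 kb. With these windows 62.2% and 63.9% of all protein-coding genes were marked, against 60.9% with 1 kb. With only intervals wider than the median of their list, 4 of the 57 members were marked, 1 in alpha and 3 in gamma. At this setting 49.8% of all protein-coding genes were marked, and 6 intervals remained along the clusters. Without intervals over 25% repeated, an alternative chosen after seeing the data, alpha had 2. The median share of repeated 32-base words was 0% within 250 bp of the TSS, against 6.14% within 1 kb. Within 250 bp it was 4.15% over alternate alpha and 12% over gamma B genes. With 50-base words the median within 1 kb was 1.18%. No paired analysis was possible because the intervals come as 1 list per antibody, without values per replicate. With no depth or score, weak H3K4me3 or HA-Tex10 signal below the authors' threshold was not detectable here.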

Other observations

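Of 29 other protein-coding genes within 500 kb outside the clusters, 24 had H3K4me3 within 1 kb of a TSS (82.8%, against 60.9% of all protein-coding genes and 71.4% of those on chromosome 18 that are no members) and 3 had HA-Tex10 (10.3%, against 8.66% of all protein-coding genes), namely Zmat2, Fchsd1 and Rnf14. The median H3K4me3 width at those genes was 1356 bp. Of the 5 protein-coding genes that start between the first and last member without being members, Taf7 had H3K4me3, and Slc25a2 and the readthrough genes Gm42416, Gm37013 and Gm37388 did not. The difference between these genes and the members was not tested.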
